A study of Homo sapiens with 3 samples.

Results

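Glycolysis genes were examined in RNA-seq of H660 cells, a human neuroendocrine prostate cancer (NEPC) cell line, treated with JG231. The 10 genes were taken by symbol from a table of 58735 genes, and each was found once. They are SLC2A1, HK2, PFKP, ALDOA, GAPDH, PGK1, ENO1, ENO2, PKM and LDHA. The parental line was treated for 24 h with vehicle (DMSO), with 2.5 μM JG231 or with 5 μM JG231, an allosteric inhibitor of the chaperone HSP70. A single library was sequenced per condition, so no value has a replicate, no SD or p-value can be given, and each difference compares 2 libraries. All 3 libraries come from 1 cell line grown with insulin, hydrocortisone and beta-estradiol in the medium, and the values describe that line only.

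Glycolysis turns glucose into pyruvate and yields ATP and NADH on the way. Glucose enters through facilitative transporters, hexokinases trap it as glucose 6-phosphate, and phosphofructokinases commit it to the pathway. The later enzymes cleave the sugar, oxidise it and pass phosphate to ADP, and lactate dehydrogenase regenerates NAD+ by turning pyruvate into lactate. Many of these genes are known targets of hypoxia-inducible factors and of MYC proteins, and tumours often show high levels of their mRNA. ENO2, which encodes neuron-specific enolase, is also a marker of neuroendocrine cells.

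The values are FPKM, fragment numbers divided by gene length and by library size, so genes can be compared within a library, while a comparison between libraries depends on the scaling. Steps in the values correspond to a depth of about 16090000 fragments in DMSO, 20370000 under 2.5 μM and 24050000 under 5 μM. Mitochondrially encoded and small RNA genes took 40.4% of all FPKM in the DMSO library, against 24.6% at 2.5 μM and 29.2% at 5 μM, and the FPKM of all other genes depends on that share. Of 10 neuroendocrine markers, 9 reached an FPKM of 1 in at least 1 library, NEUROD1 was at 0, and their summed level was 492 FPKM in DMSO and 222 and 196 under 2.5 and 5 μM JG231. The 4 epithelial markers summed to 716, 1000 and 1165 FPKM. All 6 prostate luminal markers and all 4 immune markers were under 1 FPKM in every library, as were 3 of 4 stromal and 2 of 3 endothelial markers. The neuroendocrine and epithelial levels differed between DMSO and JG231, and their part in the differences between libraries was not tested. Fewer cells of one state and less RNA per cell cannot be told apart in bulk RNA.

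The 10 genes made up 0.254%, 0.240% and 0.245% of all FPKM in the DMSO, 2.5 μM and 5 μM libraries. Without mitochondrially encoded and small RNA genes in the total, these shares were 0.427%, 0.319% and 0.346%. ENO1 and GAPDH had the highest levels in every library and HK2 and ALDOA the lowest. In DMSO, ENO1 and GAPDH lay closer together than the spread between libraries at that level, as did PGK1 and PKM, and PGK1 and PKM changed places between 2.5 and 5 μM. PFKP was above SLC2A1 in DMSO and at 2.5 μM and just below it at 5 μM.

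**Figure D1:**
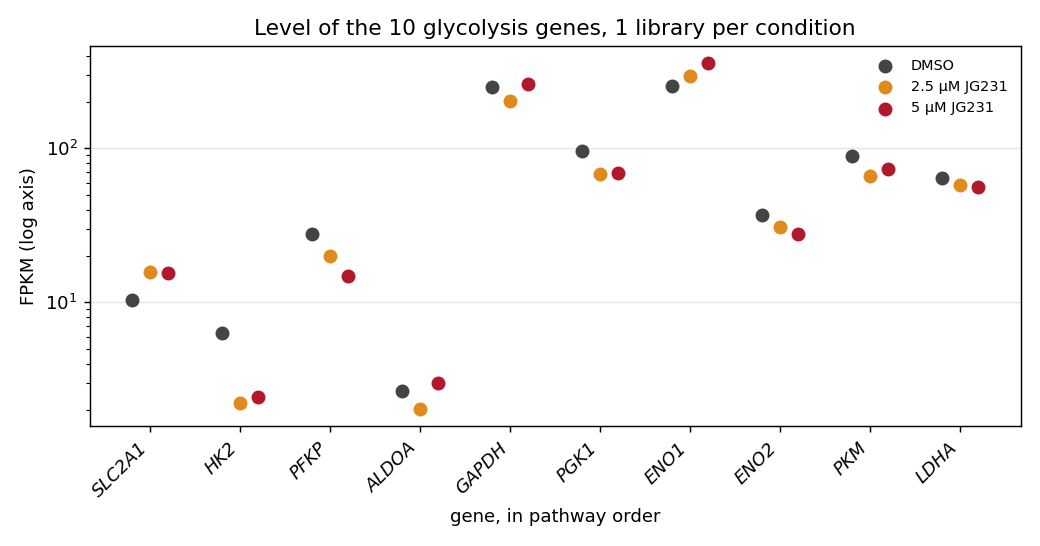
FPKM of each glycolysis gene (log axis) in the 3 libraries, 1 point per library, with genes in pathway order. SLC2A1 and ENO1 were higher in both JG231 libraries than in DMSO, HK2, PFKP, PGK1, ENO2, PKM and LDHA were lower in both, and GAPDH and ALDOA were lower at 2.5 μM only.

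The comparison asks how the inhibitor moved the mRNA of the pathway. A gene was called higher or lower when its FPKM was over 1 in either library and its log2 change, computed with a pseudocount of 0.1, was over 0.25 in size. At 2.5 μM, 1 of the 10 genes was higher (SLC2A1) and 7 were lower (HK2, PFKP, ALDOA, GAPDH, PGK1, ENO2 and PKM), where 36.4% of all 15746 genes tested were higher and 43.4% lower. At 5 μM, 2 were higher (SLC2A1 and ENO1) and 5 were lower (HK2, PFKP, PGK1, ENO2 and PKM), where 36.5% of 15765 genes were higher and 45.1% lower. The median log2 change of the 10 genes was -0.34 at 2.5 μM and -0.23 at 5 μM, and that of all genes tested was -0.08 and -0.11. Past a log2 change of 1 in size, HK2 alone was lower at each dose and none of the 10 was higher, where 12.9% of all genes were higher and 21.7% lower at 2.5 μM, and 14.7% and 24.3% at 5 μM. Without ALDOA, whose values are uncertain, the medians were -0.30 and -0.27.

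Most of the 10 genes are abundant, and the median of abundant transcripts depended on how these were chosen and scaled. Over 2286 protein-coding genes whose mean FPKM across the 3 libraries reached 20 it was 0.41 at 2.5 μM and 0.48 at 5 μM in log2, and over 1988 chosen by their DMSO value instead it was 0.16 and 0.23. At 2.5 μM 16.7% of the first set and 28.8% of the second were called lower, and at 5 μM 16.2% and 28.3%. Rescaled without mitochondrially encoded and small RNA genes, these medians were 0.12 and 0.10 for the first set and -0.13 and -0.15 for the second, beside -0.62 and -0.61 for the 10 glycolysis genes. In place of a replicate error, each change is set beside a spread, a robust SD over the 500 genes most similar in FPKM of how far the 5 μM library lay from the 2.5 μM library in log2. These 2 libraries differ in dose and are no replicates. Intervals of 95% computed from fragments (exact binomial) cover counting error only.

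**Figure D2:**
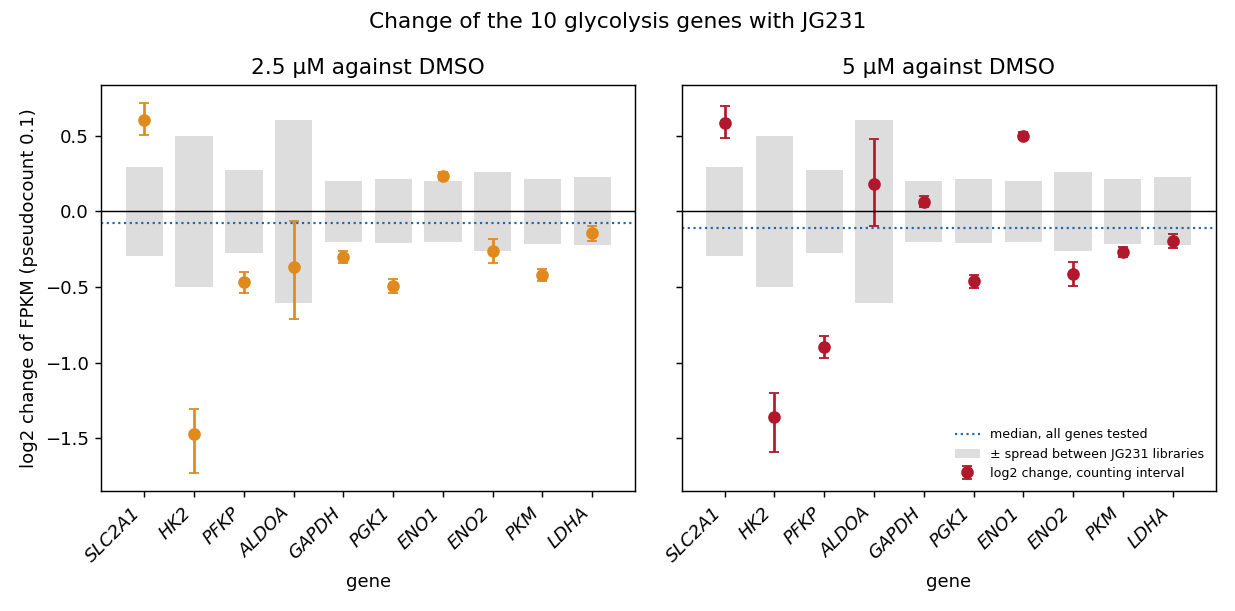
Log2 change of FPKM of each glycolysis gene against DMSO at 2.5 μM (left) and 5 μM (right). Points carry 95% counting intervals, grey bars reach 1 spread either side of 0, and the dotted line is the median of all genes tested. HK2 and PFKP lay lowest at 5 μM, with -1.36 and -0.89, and SLC2A1 highest, with 0.58.

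Promoter sequence was read for the 10 genes from RefSeq (GRCh38.p14), in windows of 300 bases that run from 250 bases before to 50 after each annotated start. The 10 genes had 17 windows. The letters ACGTG, a form of the core of the hypoxia response element, were found on either strand in at least 1 window of 7 of 10 genes. They were found in 24.9% of all 27305 genes with a window. SLC2A1, ENO1 and PKM had no match to these letters. The form GCGTG was not searched, so a gene without ACGTG may still hold that core. The E-box CACGTG, which MYC proteins bind and which contains ACGTG, was found in HK2, ALDOA, GAPDH and LDHA, against 8.77% of all genes. GGGCGG, the GC box, was found in all 10 genes and in 48.3% of all genes, and TGATGNAA, of the type that ATF4 binds, in none of the 10 and in 4.46% of all genes. A match is a description of letters and not a bound site, and genes with several windows had more chances of one. The first listed window is shown for each of the 7 genes called at 5 μM, SLC2A1 and ENO1, which were higher, before the 5 that were lower, each written 5′ to 3′ on the strand of its gene. Capitals mark ACGTG or its reverse complement.
SLC2A1, chr1:42958819-42959118, minus strand: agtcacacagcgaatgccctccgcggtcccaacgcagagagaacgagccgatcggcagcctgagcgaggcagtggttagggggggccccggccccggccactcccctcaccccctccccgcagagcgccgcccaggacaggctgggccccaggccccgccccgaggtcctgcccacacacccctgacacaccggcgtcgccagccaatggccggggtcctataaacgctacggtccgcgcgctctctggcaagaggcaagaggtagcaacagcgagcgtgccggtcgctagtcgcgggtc
ENO1, chr1:8878637-8878936, minus strand: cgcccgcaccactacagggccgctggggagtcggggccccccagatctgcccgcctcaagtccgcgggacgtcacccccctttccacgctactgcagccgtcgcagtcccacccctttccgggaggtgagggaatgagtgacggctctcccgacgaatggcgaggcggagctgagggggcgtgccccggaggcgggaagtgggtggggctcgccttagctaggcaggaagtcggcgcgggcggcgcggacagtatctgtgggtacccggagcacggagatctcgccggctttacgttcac
HK2, chr2:74833877-74834176, plus strand: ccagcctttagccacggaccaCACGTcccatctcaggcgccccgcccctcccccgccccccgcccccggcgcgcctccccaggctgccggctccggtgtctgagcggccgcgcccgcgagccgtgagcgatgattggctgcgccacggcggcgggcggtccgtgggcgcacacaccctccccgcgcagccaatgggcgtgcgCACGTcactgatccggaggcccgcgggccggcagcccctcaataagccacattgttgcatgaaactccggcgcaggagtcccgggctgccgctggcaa
PFKP, chr10:3067720-3068019, plus strand: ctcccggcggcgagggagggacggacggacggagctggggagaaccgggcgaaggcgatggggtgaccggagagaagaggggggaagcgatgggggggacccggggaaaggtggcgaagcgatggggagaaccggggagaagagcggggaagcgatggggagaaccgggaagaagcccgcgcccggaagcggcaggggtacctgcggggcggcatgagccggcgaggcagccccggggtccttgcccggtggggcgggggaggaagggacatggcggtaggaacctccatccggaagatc
PGK1, chrX:78103998-78104297, plus strand: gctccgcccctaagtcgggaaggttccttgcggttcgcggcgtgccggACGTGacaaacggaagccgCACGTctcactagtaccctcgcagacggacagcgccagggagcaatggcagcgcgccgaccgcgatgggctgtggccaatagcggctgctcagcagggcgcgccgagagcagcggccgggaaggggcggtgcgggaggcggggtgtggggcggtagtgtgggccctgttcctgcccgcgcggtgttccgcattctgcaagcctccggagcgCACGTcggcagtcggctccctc
ENO2, chr12:6914330-6914629, plus strand: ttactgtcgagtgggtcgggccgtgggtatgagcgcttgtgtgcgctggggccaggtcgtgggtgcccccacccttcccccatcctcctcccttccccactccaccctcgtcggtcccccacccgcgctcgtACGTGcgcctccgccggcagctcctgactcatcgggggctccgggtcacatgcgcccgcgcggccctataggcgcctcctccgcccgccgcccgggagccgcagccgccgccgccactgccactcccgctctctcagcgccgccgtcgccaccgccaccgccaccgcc
PKM, chr15:72231141-72231440, minus strand: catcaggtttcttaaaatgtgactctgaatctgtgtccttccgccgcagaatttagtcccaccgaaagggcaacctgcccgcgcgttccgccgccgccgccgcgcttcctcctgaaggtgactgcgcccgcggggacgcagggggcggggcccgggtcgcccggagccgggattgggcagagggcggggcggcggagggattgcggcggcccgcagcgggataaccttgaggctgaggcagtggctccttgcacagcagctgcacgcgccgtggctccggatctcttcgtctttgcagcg

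These windows of SLC2A1, ENO1, PFKP and PKM hold no capitals. That of HK2 holds 2 matches, PGK1 has 3 and ENO2 has 1. Of the 4 windows of PFKP, the third holds a match. Over all windows, 4 of the 5 genes that were lower and neither of those that were higher hold the letters. ALDOA, GAPDH and LDHA, which were not called at 5 μM, hold them too. LDHA, called at neither dose as deposited, has 2 E-boxes in 1 window. The letters were not tested against the changes.

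The mRNAs for glucose uptake by GLUT1 and phosphorylation by HK2 differed from DMSO in opposite directions. SLC2A1 (ENSG00000117394, chromosome 1, 42925353 to 42958893 on GRCh38) encodes GLUT1, the main glucose transporter of most proliferating cells. It had 10.4 FPKM in DMSO and 15.8 and 15.6 under 2.5 and 5 μM JG231, on at least 1103 fragments. Both JG231 libraries were about equally above DMSO, with log2 changes of 0.60 (interval 0.50 to 0.71) and 0.58 (0.49 to 0.69), beside a spread of 0.29. No other of the transporters in the list reached a mean of 1 FPKM, so SLC2A1 supplied 94.1% of their summed FPKM in DMSO and all of it at both doses.

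HK2 (ENSG00000159399, chromosome 2, 74834127 to 74893359) encodes the inducible hexokinase that binds mitochondria in many tumour cells. It had 6.36 FPKM in DMSO and 2.23 and 2.42 under 2.5 and 5 μM JG231, on 605, 268 and 344 fragments. Its level was 2.78-fold lower at 2.5 μM and 2.56-fold lower at 5 μM, log2 changes of -1.47 (interval -1.73 to -1.31) and -1.36 (-1.59 to -1.20), beside a spread of 0.50. These were the largest changes among the 10 genes at both doses, yet 15.4% of all genes tested at 2.5 μM and 19.0% at 5 μM had a lower value. HK1, the constitutive hexokinase, had 10.9, 10.7 and 7.77 FPKM, so that HK2 supplied 36.3% of hexokinase FPKM in DMSO but 17.1% and 23.2% under JG231. The ratio of SLC2A1 to HK2, which does not depend on how libraries are scaled, was 1.63 in DMSO and 7.10 and 6.45 under JG231.

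GPI, which isomerises glucose 6-phosphate to fructose 6-phosphate, was lower at both doses, with 63.8 FPKM in DMSO and 39.6 and 45.7 under 2.5 and 5 μM JG231. PFKP (ENSG00000067057, chromosome 10, 3066333 to 3137718), the platelet type of phosphofructokinase, had 27.6, 19.9 and 14.8 FPKM. It was lower at both doses and lowest at 5 μM, with log2 changes of -0.47 (interval -0.54 to -0.40) and -0.89 (-0.97 to -0.83), beside a spread of 0.27. The liver type, PFKL, had 22.8 FPKM in DMSO and at 2.5 μM and 19.3 at 5 μM, and the muscle type, PFKM, had 3.29, 2.84 and 1.95 FPKM. PFKP was therefore the leading isozyme in DMSO, with 51.4% of the step's FPKM, and PFKL led at 2.5 μM, when PFKP supplied 43.7%, and at 5 μM, with 53.5% against 41.1%. The summed FPKM of the 3 isozymes was 53.7 in DMSO, 45.6 at 2.5 μM and 36.1 at 5 μM.

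**Figure D3:**
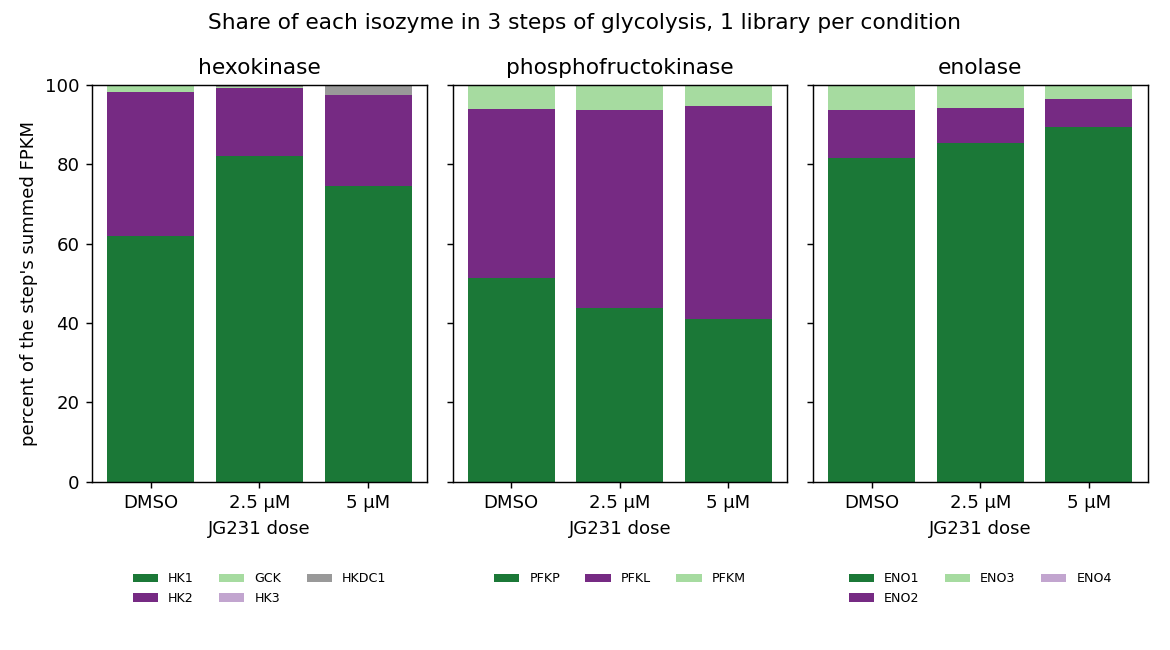
Share of each isozyme in the summed FPKM of hexokinase, phosphofructokinase and enolase genes (percent, bars from 0 to 100) in the DMSO, 2.5 μM and 5 μM libraries, 1 library each. The HK2 share was 36.3% in DMSO and 17.1% at 2.5 μM, the PFKP share went from 51.4% to 41.1% at 5 μM, and the ENO2 share from 12.0% to 6.96%.

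The aldolase step could not be read from this table. ALDOA (ENSG00000149925, chromosome 16, 30064164 to 30070457), the main aldolase of most cells, had only 2.65 FPKM in DMSO and 2.03 and 3.01 under 2.5 and 5 μM JG231. The enzymes on either side of it were far above that, with GPI at 63.8 and TPI1 at 89.8 FPKM in DMSO. Another annotated gene on the same strand, ENSG00000285043 (chromosome 16, 30053123 to 30070414), shares 89.8% of the bases of the canonical ALDOA transcript. That gene was listed at 1.73, 2.11 and 2.81 FPKM. The part of this overlap in the low values was not tested. The ALDOA log2 changes of -0.37 and 0.18 were within its spread of 0.61. ALDOC, named after its values were seen, had 0.870 FPKM in DMSO and was listed at 0 at both doses.

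The later steps of the pathway, which earn ATP, held the most abundant members. TPI1, which interconverts the triose phosphates, was level across the libraries at 89.8, 88.6 and 89.8 FPKM. GAPDH (ENSG00000111640, chromosome 12, 6534512 to 6538374), which oxidises glyceraldehyde 3-phosphate, had 249 FPKM in DMSO and 202 and 261 under 2.5 and 5 μM JG231. It was below DMSO at 2.5 μM, with a log2 change of -0.30 (interval -0.34 to -0.26), and 0.07 (0.03 to 0.10) at 5 μM, against a spread of 0.20. The change at 5 μM depended on the processing and ranged from -0.72 to 0.18 over the alternatives. Rescaled without mitochondrially encoded and small RNA genes it was -0.31, past the threshold for a lower call. The table has 62 numbered GAPDH pseudogenes, of which 10 were above 0 in any library, and their summed FPKM was 4.81, 5.18 and 3.51. A gene on the opposite strand overlaps 32.8% of the canonical GAPDH transcript, and whether strand was used in counting is not stated.

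PGK1 (ENSG00000102144, chromosome X, 77910739 to 78129295), which makes the first ATP of the pathway, had 95.9 FPKM in DMSO and 68.1 and 69.5 under 2.5 and 5 μM JG231. Both JG231 libraries were below DMSO by similar amounts, with log2 changes of -0.49 (interval -0.54 to -0.45) and -0.46 (-0.51 to -0.42), each over 2 times its spread of 0.21. PGAM1, the phosphoglycerate mutase, had 38.6, 32.7 and 34.2 FPKM, with log2 changes of -0.24 and -0.18 inside a spread of 0.24.

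The enolases differed in direction. ENO1 (ENSG00000074800, chromosome 1, 8861000 to 8879190), the ubiquitous enolase, had 253 FPKM in DMSO and 297 and 357 under 2.5 and 5 μM JG231, on at least 21205 fragments. Its log2 change was 0.23 (interval 0.21 to 0.26) at 2.5 μM, which did not reach the threshold, and 0.50 (0.48 to 0.52) at 5 μM, against a spread of 0.20. The direction of ENO1 depended on the processing. Rescaled without mitochondrially encoded and small RNA genes, its change was -0.057 at 2.5 μM and 0.12 at 5 μM. With the trend on expression level removed its change at 5 μM was -0.33. ENO2 (ENSG00000111674, chromosome 12, 6913745 to 6923698) had 37.0, 30.8 and 27.8 FPKM, the reverse order. Its log2 changes were -0.26 (interval -0.34 to -0.19), equal to its spread of 0.26, and -0.41 (-0.49 to -0.34).

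The ratio of ENO1 to ENO2 within a library, which needs no scaling, was 6.83 in DMSO, 9.64 at 2.5 μM and 12.9 at 5 μM. ENO3, the muscle enolase, had 19.3, 19.9 and 13.8 FPKM and a share of 6.25%, 5.73% and 3.47%. The share of ENO2 was 12.0% in DMSO, 8.86% at 2.5 μM and 6.96% at 5 μM, and that of ENO1 was 81.7%, 85.4% and 89.5%.

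PKM (ENSG00000067225, chromosome 15, 72199029 to 72231819), the pyruvate kinase of most tissues, had 89.0 FPKM in DMSO and 66.5 and 73.8 under 2.5 and 5 μM JG231. Its log2 changes were -0.42 (interval -0.46 to -0.38) and -0.27 (-0.30 to -0.24) against a spread of 0.21. Gene-level FPKM does not separate the splice forms of PKM, and PKLR, the liver and red cell enzyme, was at 0 in every library. LDHA (ENSG00000134333, chromosome 11, 18394560 to 18408425) had 64.1, 58.1 and 55.9 FPKM. Its changes of -0.14 (interval -0.19 to -0.09) and -0.20 (-0.25 to -0.15) were inside its spread of 0.23, and LDHA was called at neither dose. Rescaled without mitochondrially encoded and small RNA genes it was past the threshold at both doses, with -0.43 and -0.58, and so it was with the trend on expression level removed, with -0.58 and -0.74, or on transcript length, with -0.33 and -0.45. At 5 μM only it also passed when rescaled to a common sum, with -0.33, or with pseudogenes added, with -0.28.

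LDHA supplied 98.7% of lactate dehydrogenase FPKM in DMSO. LDHB, also named after its values were seen, stood on 3 fragments in DMSO and was listed at 0 at both doses, and a gene on the same strand, itself at 0, shares 76.5% of its canonical transcript. Numbered LDHA pseudogenes summed to 6.35 FPKM in DMSO and 1.97 and 2.17 under 2.5 and 5 μM JG231.

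From 2.5 to 5 μM, 3 of 10 were higher (ALDOA, GAPDH and ENO1) and 1 was lower (PFKP), where 26.8% of 14197 genes were higher and 30.1% lower. None passed a difference of 1, which 7.47% of all genes did upwards and 8.09% downwards. GAPDH differed by 0.37 (interval 0.33 to 0.40), ENO1 by 0.27 (0.24 to 0.29) and PFKP by -0.42 (-0.50 to -0.35). Each was over 1 spread, but the spread is computed from this same comparison. It is therefore no separate measure of error here. Rescaled to a common sum, GAPDH differed by 0.19 and ENO1 by 0.086, both under the threshold, and PFKP by -0.60. SLC2A1, PGK1 and LDHA differed by at most 0.05 in size. The value of HK2 was 0.12, with an interval from -0.11 to 0.36 that holds 0.

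Other genes of glycolysis were mostly not abundant or not called. Of 30 further genes of the pathway and its lactate transporters, 10 had an FPKM over 1. None of these was higher at either dose, where 36.4% of all genes were at 2.5 μM and 36.5% at 5 μM. At 2.5 μM 2 were lower, where 43.4% of all genes were, and at 5 μM 5 were lower, where 45.1% were. The median log2 changes were -0.11 and -0.36. Rescaled without mitochondrially encoded and small RNA genes, 10 of 11 genes tested were lower at 2.5 μM, and all 11 were at 5 μM, where 56.2% and 60.1% of all genes were. GPI and SLC16A3 were lower at both doses, and HK1, PFKM and ENO3 were lower at 5 μM only. SLC16A3, the lactate exporter MCT4, had 4.60 FPKM in DMSO and 2.94 and 2.56 under 2.5 and 5 μM JG231, or -0.63 and -0.82 as log2 changes where the spread was 0.49.

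Genes that control glycolysis or the fate of pyruvate were called in both directions. In a list of 27 such genes, 8 of 23 genes tested were higher and 7 lower at 2.5 μM, and 8 of 22 were higher and 10 lower at 5 μM, with median changes of 0.00 and -0.11. Of all genes 36.4% were higher and 43.4% lower at 2.5 μM, and 36.5% and 45.1% at 5 μM. Rescaled as above, 12 of 23 were lower at 2.5 μM, where 56.2% of all genes were. The genes with the largest changes at both doses and a mean FPKM of at least 1 were MPC1, PDP1, PDHX and PDHB. FBP2, with a mean of 0.767 FPKM, was left out by that limit. It had changes of -3.21 on 2 fragments at 2.5 μM (interval -7.49 to -2.42) and -1.02 at 5 μM (-1.94 to -0.29). MPC1, a subunit of the mitochondrial pyruvate carrier, had 11.0 FPKM in DMSO and 28.6 and 25.7 under 2.5 and 5 μM JG231, or 1.37 and 1.22 as log2 changes where the spread was 0.26. Its partner MPC2, named here after its values were seen, had 21.1, 36.5 and 41.5 FPKM. PDP1, the phosphatase that activates pyruvate dehydrogenase, had 13.8, 34.0 and 26.4 FPKM, and PDHX and PDHB, subunits of that complex, had log2 changes of 0.92 and 0.83 at 5 μM.

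The other subunits of the complex, also named after their values were seen, were closer to DMSO. PDHA1 had 15.4, 16.6 and 15.4 FPKM, DLD had 8.02, 8.02 and 7.29, and DLAT had 12.9, 11.8 and 10.4. TXNIP, a glucose-responsive inhibitor of glucose uptake that was likewise singled out, was lower, with changes of -0.37 and -0.53 beside a spread of 0.21. PFKFB2, which helps set the level of an activator of phosphofructokinase and was singled out too, had -0.51 and -1.04 beside a spread of 0.55, so that its change at 2.5 μM was inside the spread.

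Branches that leave glycolysis included some of the larger differences. Of 17 genes tested in the pentose phosphate pathway and glycogen metabolism, 9 were higher and 6 lower at 2.5 μM, and 10 were higher and 4 lower at 5 μM, with medians of 0.32 and 0.40, where 36.4% and 36.5% of all genes were higher and 43.4% and 45.1% lower. Rescaled without mitochondrially encoded and small RNA genes, the medians were 0.034 and 0.020 and 4 of 17 were higher at 5 μM, where 23.0% of all genes were. TKT, the transketolase that links the pentose phosphate pathway back to glycolysis, had 41.6 FPKM in DMSO and 99.9 and 111 under 2.5 and 5 μM JG231, or 1.26 and 1.42 as log2 changes where the spread was 0.21. H6PD, the glucose 6-phosphate dehydrogenase of the endoplasmic reticulum, had 9.18, 2.31 and 1.56 FPKM, changes of -1.94 and -2.48 against a spread of 0.49. In glycogen metabolism, GYG1, the primer of glycogen, was higher, with changes of 0.95 and 0.99, and GYS1, the synthase, was lower, with -0.93 and -1.23. A gene on the opposite strand overlaps 21.8% of the exon bases of GYG1.

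Hypoxia-inducible factors and their targets outside glycolysis were called in both directions. Of 22 genes tested, 10 were higher and 7 lower at 2.5 μM, and 8 were higher and 7 lower at 5 μM. Their medians were 0.09 and 0.06. Of all genes 36.4% were higher and 43.4% lower at 2.5 μM, and 36.5% and 45.1% at 5 μM. Rescaled without mitochondrially encoded and small RNA genes, 3 of the list were higher and 13 lower at 5 μM, a median of -0.31. Of all genes 23.0% were then higher and 60.1% lower, and their median was -0.53. VEGFA, the angiogenic growth factor, had 16.7 FPKM in DMSO and 71.2 and 53.8 under 2.5 and 5 μM JG231, or 2.08 and 1.68 as log2 changes where the spread was 0.21. P4HA2, a collagen prolyl hydroxylase, was 1.26 and 1.29 higher on the log2 scale, and DDIT4, an inhibitor of mTORC1, was 1.10 and 0.74 higher. ARNT2, a partner of the factors, had changes of -0.81 and -1.36 against a spread of 0.76. Also named after their values were seen, HIF1A itself had 30.0, 51.5 and 42.1 FPKM, and the targets BNIP3L and NDRG1 differed from DMSO by at most 0.17 in size.

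**Figure D4:**
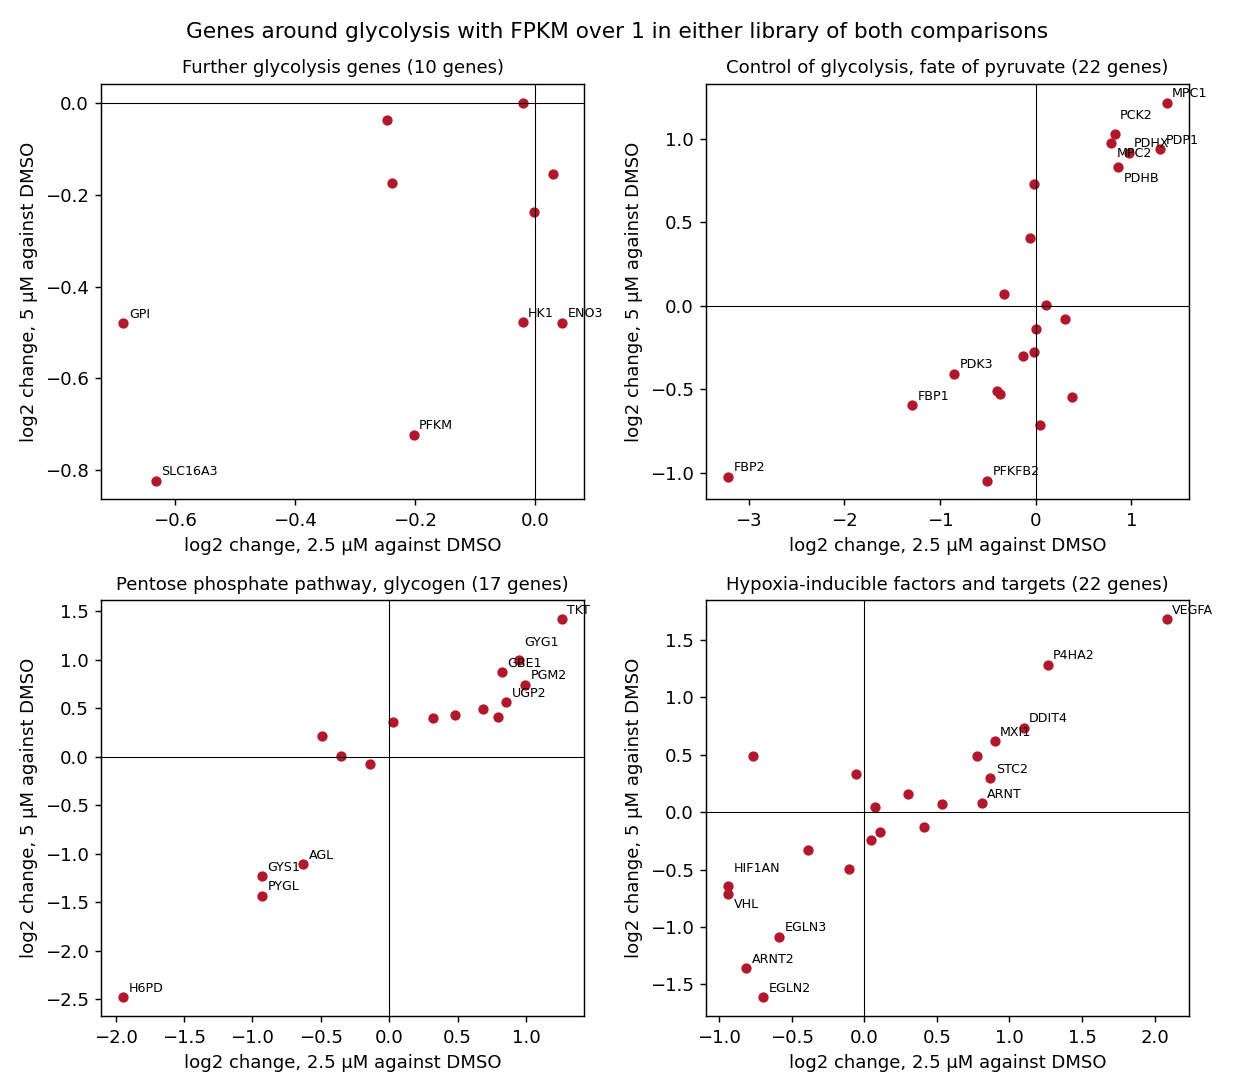
Log2 change at 2.5 μM (x axis) against that at 5 μM (y axis), both against the same DMSO library, for genes with an FPKM over 1 in either library of both comparisons, in 4 lists. MPC1, TKT and VEGFA lie at the upper right of their panels and H6PD, at -1.94 and -2.48, at the lower left. FBP2 rests on 2 fragments at 2.5 μM, so its position is poorly known.

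Rescaling without mitochondrially encoded and small RNA genes lowered the median of all genes tested to -0.40 at 2.5 μM and -0.53 at 5 μM, and the share of called genes that were higher went from 45.6% to 30.4% and from 44.7% to 27.6%. Under that scaling the median of the 10 glycolysis genes was -0.62 at 2.5 μM and -0.61 at 5 μM, below the median of all genes at both doses, and SLC2A1 at 5 μM was 0.21, under the threshold. SLC2A1 stayed above 0 and HK2, PFKP, PGK1, ENO2, PKM and LDHA below 0 at both doses under each of the 8 alternatives tried. ENO1 at both doses, and GAPDH and ALDOA at 5 μM, changed sign under at least 1 of them. Calls were lost without a change of sign. Centred on the median gene, GAPDH (-0.22) and ENO2 (-0.18) at 2.5 μM and PKM (-0.16) at 5 μM were under the threshold, so that 5 and 4 of the 10 genes were lower. ENO2 at 2.5 μM was also under it when rescaled to a common sum (-0.21), and ALDOA at 2.5 μM with the trend on expression level removed (-0.098). ENO1 at 5 μM was under it when rescaled without mitochondrially encoded and small RNA genes (0.12) and with the trend on length removed (0.15).

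**Figure D5:**
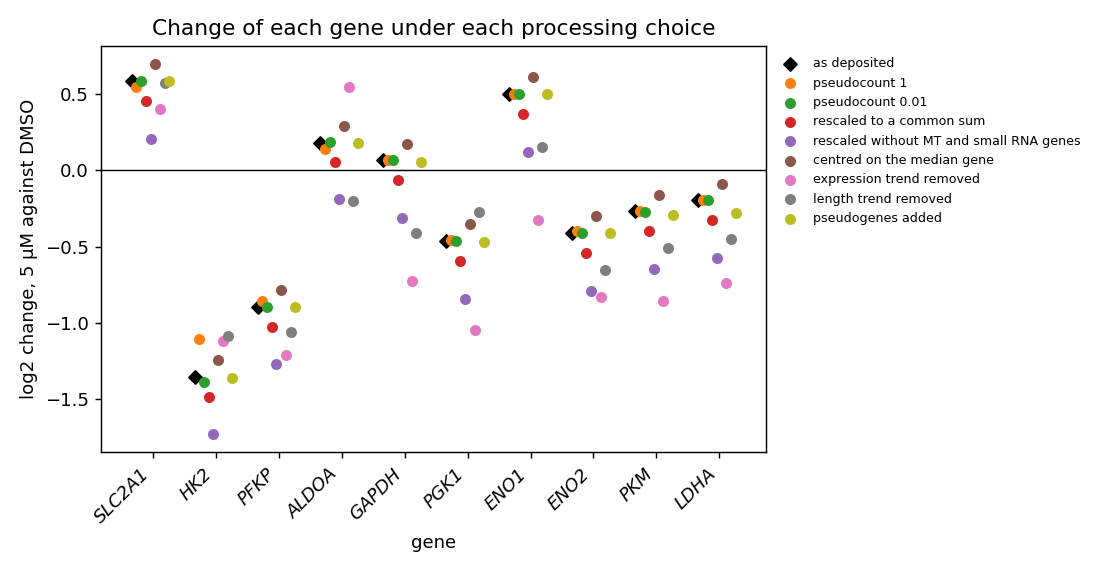
Log2 change at 5 μM against DMSO of each glycolysis gene under the values as deposited (diamonds) and 8 alternative processing choices (circles). HK2 stayed between -1.73 and -1.09 and SLC2A1 between 0.21 and 0.69, while ENO1 ranged from -0.33 to 0.61 and GAPDH from -0.72 to 0.18.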

How the data were processed

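RNA-seq of H660 cells was analysed from 1 table with a column for each of 3 libraries (DMSO, 2.5 μM and 5 μM JG231, 24 h). The authors aligned reads with HISAT and deposited gene-level FPKM. The methods name StringTie for quantification, whereas the submitters' processing notes name HISAT2 and featureCounts with GRCh38. Versions, annotation release and strand setting are not given in the sources used here. A counter that leaves out fragments shared by overlapping genes lowers such genes. FPKM were not scaled further between libraries.

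The 10 genes and all lists, motifs and alternatives were chosen with earlier results of these data known. Log2 changes used a pseudocount of 0.1 and calls an FPKM over 1 in either library and a change over 0.25. These thresholds and the pseudocount are those of the study's methods. Applying the limit of 1 to either library was chosen here, and the study's rule of also keeping genes that went to or from 0 was not applied. On the log2(FPKM + 0.1) scale the changes of low genes are understated. Named genes outside the 10 were the isozymes of their steps with a mean FPKM of at least 1, GPI, TPI1 and PGAM1, and up to 4 genes per list with the largest smaller change of the 2 doses, same sign at both and a mean FPKM of at least 1. Other genes named in the text were chosen after their values were seen. GENCODE release 44, joined on gene identifier, gave positions, exon length and overlap, and fragments were computed as FPKM times exon length over the value of 1 fragment. This value came from genes with 1 transcript, where 90.5%, 88.2% and 86.7% of values lay within 0.1 of a whole number. Exon lengths may differ from those the authors used, so fragments are approximate, and PCR copies make the intervals too narrow. Alternatives were pseudocounts of 1 and 0.01, rescaling to a common sum of FPKM over all genes or over those neither mitochondrially encoded nor small RNA, subtracting the median gene's change, removal of a lowess trend (fraction 0.3) on expression level or on transcript length, other filters, a threshold of 1 and adding pseudogenes. Scripts were tested on simulated data. The software was Python 3.11.15 with scipy 1.17.1 for intervals, statsmodels 0.14.6 for lowess, matplotlib 3.10.9 for plots, and pandas 2.3.3 and numpy 2.4.6. Protein sequences were not used here.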

Additional observations from a re-analysis of the deposited data

Results flagged for a closer look

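GAPDH and ALDOA were picked out because their direction against DMSO was opposite at the 2 doses, with 1 library each, and the difference was not tested. GAPDH had a log2 change of -0.30 at 2.5 μM and 0.065 at 5 μM. ALDOA, whose transcript is mostly shared with another annotated gene, had -0.37 at 2.5 μM and 0.18 at 5 μM. The opposite directions depended on the processing. Over the alternatives both genes stayed below 0 at 2.5 μM, while at 5 μM GAPDH ranged from -0.72 to 0.18 and ALDOA from -0.20 to 0.55.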

How the results depend on the processing

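No paired analysis was possible because each condition had 1 library, and no library could be left out. Of 327 counts and medians of the lists recomputed, 265 stayed within 1.5 times the main count or within the spread. Both pseudocounts, a mean FPKM of at least 1, added pseudogenes and leaving out ALDOA, which was chosen after seeing the data, moved none of them. Where values moved, the cause was not tested unless the setting itself left fewer genes. The lists are the 10 glycolysis genes, further glycolysis genes, pyruvate genes, pentose phosphate and glycogen genes, and hypoxia genes, and changes are against DMSO unless said otherwise.

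With values rescaled without mitochondrially encoded and small RNA genes, the median of the 10 genes was -0.62 at 2.5 μM and -0.61 at 5 μM, where 0 were higher. Of further glycolysis genes 10 and 11 were lower, with medians of -0.49 and -0.85. Of pyruvate genes 12 were lower at 2.5 μM, and the medians were -0.29 and -0.44. For pentose phosphate and glycogen genes the medians were 0.034 and 0.020, with 4 higher at 5 μM. For hypoxia genes they were -0.20 and -0.31, with 3 higher and 13 lower at 5 μM.

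With the trend on expression level removed, the median of the 10 genes was -0.69 and -0.78, 8 were lower at 5 μM, ENO1 turned to -0.33 at 5 μM and 1 gene was higher from 2.5 to 5 μM. The median of all genes tested was then -0.079 at both doses, and 45.3% and 45.9% of called genes were higher. Of further glycolysis genes 6 and 10 were lower, with a median of -0.37 at 2.5 μM. Pyruvate genes had 6 lower at 5 μM and their median at 2.5 μM was 0.33, and pentose phosphate and glycogen genes medians of 0.0093 and 0.029 with 5 higher at 5 μM. With the trend on transcript length removed, 1 of the 10 genes was higher at 5 μM, 7 and 9 further glycolysis genes were lower, and 6 pentose phosphate and glycogen genes were higher at 5 μM, with a median of 0.070. There the median of all genes tested was -0.15 at both doses, and 41.9% and 41.6% of called genes were higher. After rescaling to a common sum, 2 of the 10 genes were higher at 2.5 μM, 8 further glycolysis genes were lower at 5 μM, and from 2.5 to 5 μM 1 of the 10 was higher and 2 were lower. That scaling moved the median of all genes to -0.25 at 5 μM and to -0.20 from 2.5 to 5 μM, and the share of called genes that were higher from 47.1% to 27.2% in the latter. Against DMSO this share was 48.1% at 2.5 μM and 38.7% at 5 μM. Centring on the median gene gave 2 of the 10 higher at 2.5 μM, where 49.6% of called genes were higher.

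A threshold of 1 left 0 of the 10 genes higher and 1 lower at each dose, and 0 either way from 2.5 to 5 μM. With a mean FPKM of at least 5, which tests fewer genes, 64.8% and 64.1% of called genes were higher at the 2 doses. Further glycolysis genes then had 1 and 3 lower, pyruvate genes 2 and 3 lower with medians of 0.45 and 0.45, pentose phosphate and glycogen genes 2 and 0 lower with a median of 0.69 at 2.5 μM, and hypoxia genes 3 and 4 lower. With no filter, further glycolysis genes had 1 and 2 higher and 10 and 12 lower, with a median of -0.096 at 5 μM, and the pentose phosphate and glycogen median was 0 at 2.5 μM. Of all called genes 40.3% and 36.9% were then higher at the 2 doses. The median of abundant protein-coding genes, 0.41 and 0.48, turned to -0.13 and -0.15 when they were chosen by DMSO level and rescaled without mitochondrially encoded and small RNA genes, a choice added after seeing the data. Depth limits HK2 and ALDOA most, which rest on 268 and 158 fragments at 2.5 μM.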

Other observations

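Lactate and pyruvate leave and enter cells through monocarboxylate transporters, which need the chaperone basigin. Basigin mRNA (BSG) was among the abundant transcripts of the list, with 238 FPKM in DMSO and 201 and 232 under 2.5 and 5 μM JG231. SLC16A1, the transporter MCT1, had 11.8, 12.0 and 10.6 FPKM, so that it was above SLC16A3 in every library. PCK2, the mitochondrial enzyme that makes phosphoenolpyruvate from oxaloacetate, had 16.9 FPKM in DMSO and 30.0 and 34.6 under 2.5 and 5 μM JG231, or 0.82 and 1.03 as log2 changes where the spread was 0.27. The pyruvate dehydrogenase kinases did not share a direction. PDK3 had 3.57, 1.93 and 2.67 FPKM and PDK4 had 6.74, 6.96 and 4.07, both lower than DMSO at 5 μM, PDK3 by less than its spread of 0.53. At 2.5 μM the log2 change of PDK3 was -0.85, past that spread. PDK2 had 1.67, 1.65 and 2.83 FPKM, higher at 5 μM by 0.73 in log2, inside its spread of 0.76. PDK1 had 1.19, 1.17 and 0.961 FPKM and was called lower at 5 μM, with -0.28 inside a spread of 1.16. These genes were singled out after their values were seen.

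GAPDH is often used as a reference for other mRNAs. Its ratio to TPI1 within a library was 2.77 in DMSO, 2.28 at 2.5 μM and 2.90 at 5 μM, and its ratio to ENO1 was 0.986, 0.680 and 0.729. These ratios do not depend on how libraries are scaled. They show unequal change between the genes, and not which of them changed.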
